A study of Homo sapiens and Canis lupus familiaris with 27 samples.

Results

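The 34 genes described here encode the machinery that builds autophagosomes and the lysosome that receives them. They were taken by their gene names from the read count tables of 3 prostate carcinoma cell lines, the human lines PC-3 and LNCaP and the canine line CT1258. All 34 were found among the 23708 genes of each human table, and 30 among the 16028 genes of the canine table, where ATG3, MAP1LC3B, GABARAPL1 and CTSD were not analysed. Cells had received the indolylmaleimide PDA-66 at 15 μM for 12 h or 24 h, or 0.15% DMSO, its solvent, for 24 h. There were 3 replicates per group, but only replicates 2 and 3 of the PC-3 controls were used, which leaves 26 of 27 samples. The DMSO samples analysed are all from 24 h, and both PDA-66 groups of a line were compared with the same controls, so a change at 12 h cannot be told apart from a difference in culture time. PC-3 was derived from a bone metastasis and LNCaP from a lymph node metastasis. Each line is a single established culture, and its replicates measure how well the treatment of that culture repeats.

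Autophagy starts when the ULK1 kinase complex activates the class III phosphatidylinositol 3-kinase complex, whose lipid product recruits WIPI proteins to the growing membrane. ATG2 and ATG9 proteins supply lipid to this membrane, and the ATG12-ATG5-ATG16L1 complex then couples small ubiquitin-like proteins of the ATG8 family (LC3 and GABARAP proteins) to it. Cargo receptors such as p62 bind ATG8 proteins on one side and ubiquitinated cargo on the other, and the closed vesicle fuses with the lysosome, where cathepsins degrade its content. The transcription factor TFEB drives many lysosomal and autophagy genes through E-box elements. These mRNA levels do not measure autophagic flux, in which p62 protein itself is consumed.

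Total counts per sample ranged from 14650839 to 18091755 in PC-3, from 11923105 to 14741883 in LNCaP and from 7203534 to 20976950 in CT1258, whose DMSO samples held 2.64 times the mean total of its PDA-66 samples. Luminal prostate markers were found in LNCaP, with KLK2 between 255 and 801 CPM in its samples, where CPM is a gene's count scaled to a fixed library total. In PC-3, KLK2 was at 0 CPM while the epithelial keratin KRT18 reached 159 to 361 CPM. In CT1258, KLK2 lay between 0 and 10.8 CPM, TMPRSS2 was at 0 CPM in all samples and EPCAM was at most 0.262 CPM, while FOLH1, a further luminal marker, lay between 2.83 and 5.69 CPM. KRT8, KRT18 and CDH1 were not analysed in CT1258, so its epithelial character was not settled by these markers. LNCaP PDA-66 12 h replicate 2 stood apart from the other samples of its group, at a mean leading log2 fold change distance of 2.19 against 1.53 to 1.58 for the other 2. LNCaP values include it unless stated otherwise, and a paragraph below gives several of them without it.

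The promoters of 3 members are printed for genes whose results are described below, since TFEB binds the E-box CACGTG. They were chosen to show a promoter with several E-boxes (LAMP1), a promoter with a single E-box in front of a gene that fell in PC-3 (ATG14) and a promoter without this sequence in front of the gene that fell in 2 cell lines (GABARAP). The sequences are the 250 bases before the RefSeq gene start on GRCh38.p14, read 5′ to 3′ along the gene, with CACGTG in capitals.
LAMP1, chr13:113296989-113297238, plus strand: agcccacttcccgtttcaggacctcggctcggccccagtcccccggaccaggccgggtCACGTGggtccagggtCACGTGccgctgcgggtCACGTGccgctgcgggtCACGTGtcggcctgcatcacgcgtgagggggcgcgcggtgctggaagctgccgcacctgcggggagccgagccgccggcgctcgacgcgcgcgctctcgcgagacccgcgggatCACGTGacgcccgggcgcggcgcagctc
ATG14, chr14:55411831-55412080, minus strand: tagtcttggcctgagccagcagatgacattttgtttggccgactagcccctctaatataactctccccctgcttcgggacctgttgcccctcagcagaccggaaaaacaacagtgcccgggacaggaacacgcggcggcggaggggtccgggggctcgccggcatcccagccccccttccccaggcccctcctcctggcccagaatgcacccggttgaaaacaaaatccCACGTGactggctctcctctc
GABARAP, chr17:7242450-7242699, minus strand: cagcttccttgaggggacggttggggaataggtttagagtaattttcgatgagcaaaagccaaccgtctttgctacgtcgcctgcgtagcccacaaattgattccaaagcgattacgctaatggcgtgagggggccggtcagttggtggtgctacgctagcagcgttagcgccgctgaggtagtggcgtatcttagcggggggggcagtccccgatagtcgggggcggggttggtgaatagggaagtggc

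LAMP1 held 5 copies of CACGTG in this window, the nearest starting 28 bases before the gene start and the farthest 192 bases before it. The single copy of ATG14 started 21 bases before the gene start. Of 39 RefSeq starts of the 30 members that could be matched, 4 (10.3%) held CACGTG, those of LAMP1, ATG14, ATG3 and CTSD, compared with 6.34% of all 35116 starts in the table. CACGTG reads the same on both strands. These matches describe human sequence only, and binding was not measured.

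In the DMSO samples, the level per length differed widely between members. Among PC-3 controls, SQSTM1, which encodes the cargo receptor p62, had the highest level of the 34 genes at 122 CPM per kb of annotated exon ± 8.28 (SD, n = 2). GABARAP followed at 95.6 ± 18.1, a gap from SQSTM1 about as large as both SDs added, and the lysosomal protease gene CTSD came next at 57.8 ± 5.47. In LNCaP controls the order began with GABARAP at 119 CPM per kb ± 6.62 (SD, n = 3), CTSD at 42.3 ± 5.17, the lysosomal membrane glycoprotein gene LAMP1 at 36.1 ± 3.92 and SQSTM1 at 34.0 ± 3.69, of which the last 3 lay within their spreads. Exon lengths were those of GENCODE 44 on GRCh37, and no such level was computed for the canine line.

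Calls among the members were counted in each cell line and read against all genes. In PC-3, 6 of 34 members passed the threshold of an adjusted p-value under 0.001 after 12 h (2 higher and 4 lower), compared with 27.6% of all genes tested, 13% higher and 14.6% lower. At 24 h, 3 members had risen and 3 had fallen, against 19.3% of all genes, 8.88% higher and 10.5% lower. For CT1258, 12 of 29 members passed after 12 h, where 11 fell and 1 rose, compared with 44.3% of all genes in either direction, 22.2% higher and 22.1% lower. At 24 h, 9 members had fallen and 0 had risen, against 33.8% of all genes, 16.6% higher and 17.2% lower. At an adjusted p under 0.05, 17 and 12 members of PC-3 passed at the respective times, next to 57% and 49.9% of all genes, and 22 and 19 members of CT1258, next to 69.8% and 62.1%. In LNCaP, 0 of 34 members passed at either time point, where 0.0076% and 0% of all genes did. By the unadjusted p-value under 0.05, 11 members of LNCaP passed after 12 h and 9 after 24 h, next to 30% and 19.8% of all genes. DESeq2's Wald test called 1 member of LNCaP after 12 h, next to 4.71% of all genes. Limma voom with sample quality weights called 3 after 12 h and 6 after 24 h, next to 13.9% and 11.2% of all genes.

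Expressed as shares, 37.9% of the members tested in CT1258 fell after 12 h and 31.0% after 24 h, above the 22.1% and 17.2% of all genes that fell, while 5.88% and 8.82% of members rose in PC-3, against 13% and 8.88% of all genes. The median log2 fold change over the members was -0.38 after 12 h and -0.28 after 24 h in CT1258, while the median over all genes tested lay at -0.01 after 24 h and closer to 0 after 12 h. In PC-3 it was -0.03 and -0.08, and in LNCaP -0.07 and -0.16. The members together held 0.478% to 0.500% of all counts in the CT1258 DMSO samples, 0.338% to 0.357% after 12 h and 0.374% to 0.389% after 24 h, so the groups did not overlap. In LNCaP the share was 0.330% to 0.335% in DMSO samples, 0.282% to 0.290% after 12 h and 0.278% to 0.282% after 24 h, with both treated groups below the controls. In PC-3 it was 0.384% to 0.399% in DMSO samples, 0.396% to 0.403% after 12 h and 0.354% to 0.373% after 24 h, where only the 24 h samples lay below the controls. Abundant members weigh most in this share, so it does not describe the members as a set. In PC-3, mean SQSTM1 went from 919 CPM in DMSO samples to 629 CPM after 24 h, and CTSB from 131 to 198 CPM. In CT1258, SQSTM1 had a log2 fold change of -1.70 after 12 h. In bulk RNA, a smaller share of cells with a transcript and less of it per cell cannot be told apart. Over both human lines and CT1258, 18 of the 34 members passed in at least 1 comparison with DMSO, and GABARAP was the only 1 that passed in 2 cell lines. The matching shares of all genes were not computed, so neither count is read as a result about the members.

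**Figure D1:**
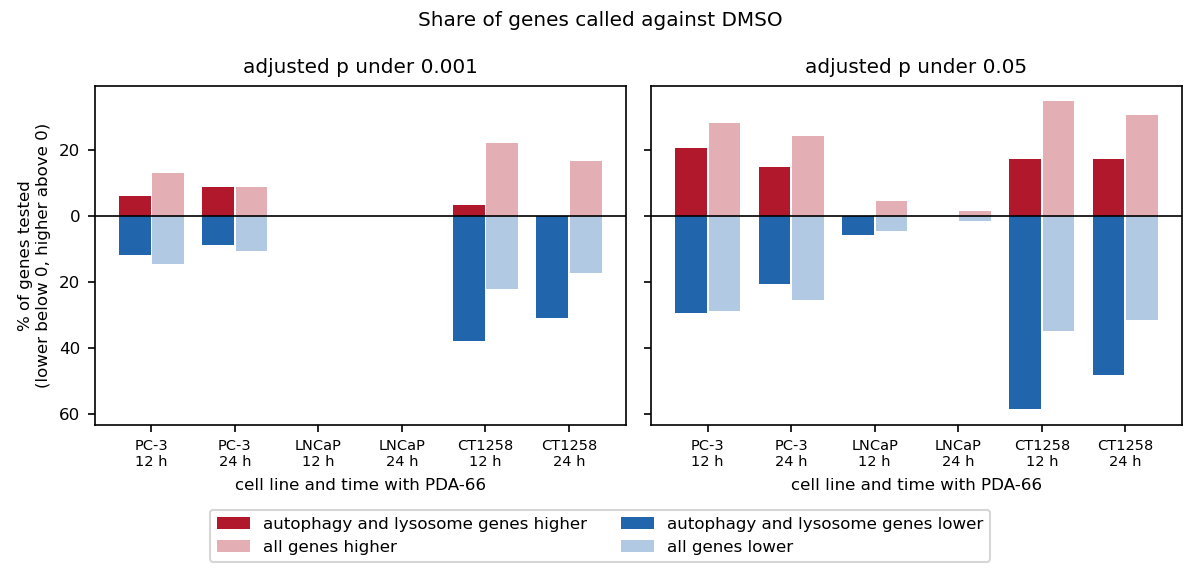
Share of genes called against DMSO, in percent of genes tested, at adjusted p under 0.001 (left) and under 0.05 (right), for each cell line and time. Dark bars show the autophagy and lysosome genes and pale bars all genes, with higher genes above 0 and lower genes below. In CT1258 the dark lower bars reach 37.9% and 31.0% at the stricter threshold, next to 22.1% and 17.2% of all genes.

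**Figure D2:**
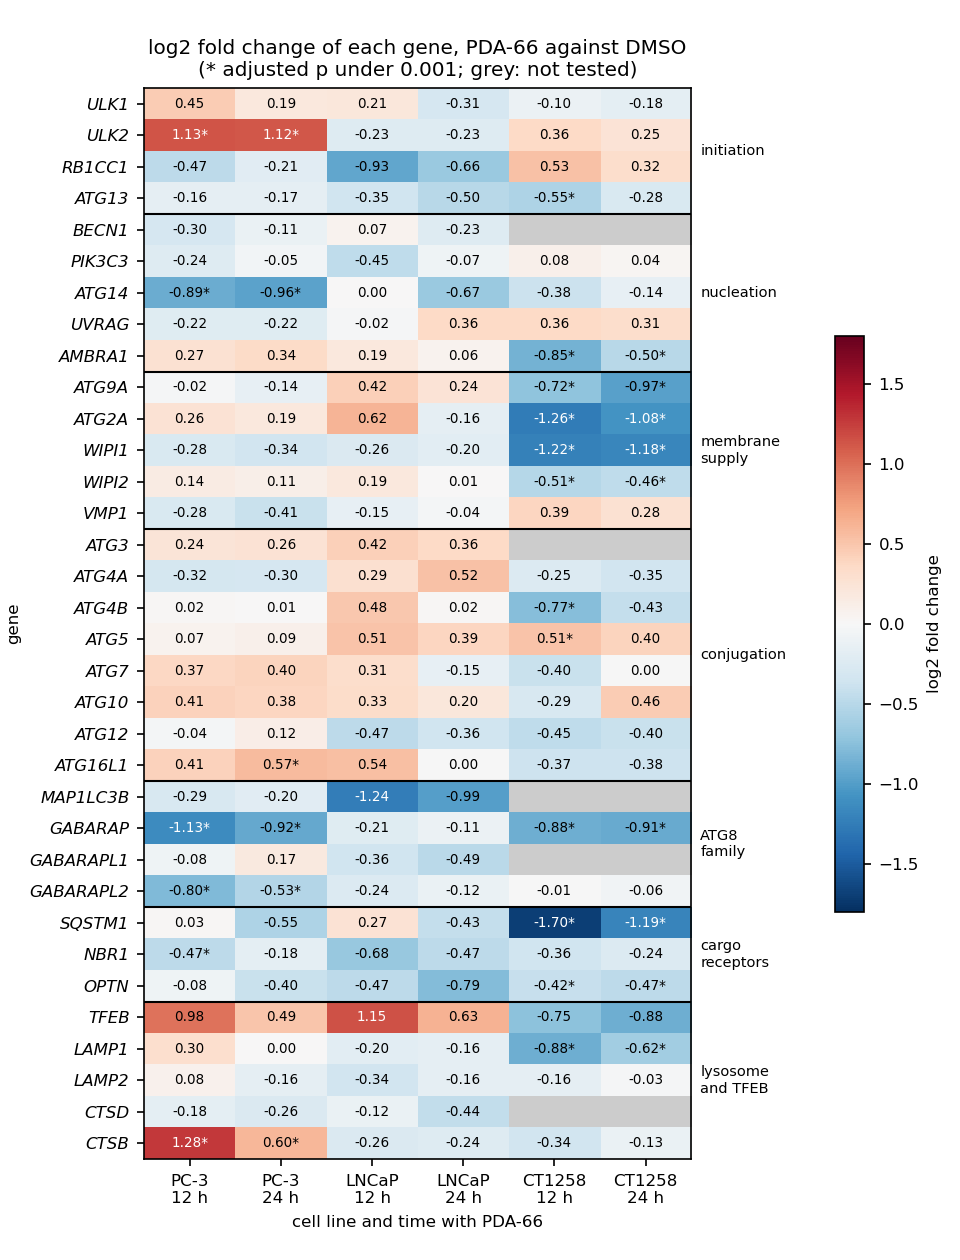
log2 fold change of each of the 34 genes against DMSO (rows, grouped by role) in the 3 cell lines after 12 h and 24 h (columns). Red is higher and blue lower with PDA-66, a star marks an adjusted p under 0.001, and grey cells were not tested. Stars lie on blue cells in CT1258 apart from ATG5 after 12 h, and on both colours in PC-3.

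Initiation genes moved in PC-3 through ULK2, a kinase that can act in place of ULK1. Its level was 6.14 and 7.50 CPM in the PC-3 DMSO samples, 15.5, 14.2 and 15.1 CPM after 12 h and 15.9, 14.5 and 14.0 CPM after 24 h. All 6 treated samples lay above both controls. The mean rose 2.19-fold after 12 h (log2 fold change 1.13, SE 0.14, adjusted p = 2.07e-05) and 2.17-fold after 24 h (1.12, SE 0.14, adjusted p = 3.71e-05, edgeR's quasi-likelihood test). In CT1258, ULK2 was at 148, 121 and 147 CPM in controls and 178, 181 and 173 CPM after 12 h, which missed the threshold (0.36, adjusted p = 0.00251). ULK1 itself, the kinase that starts autophagy under starvation, did not pass in any cell line, with log2 fold changes of 0.45 and 0.19 in PC-3 and -0.10 and -0.18 in CT1258. Its PC-3 levels were 148 and 116 CPM in controls, 171, 184 and 187 CPM after 12 h and 134, 147 and 172 CPM after 24 h, so that all 12 h samples lay above both controls and the 24 h samples overlapped them. ATG13, the regulatory subunit of this complex, fell in CT1258 after 12 h, from 82.6, 74.5 and 87.7 CPM to 53.8, 57.2 and 56.1 CPM (-0.55, adjusted p = 8.19e-05). Its 24 h values of 67.6, 69.9 and 64.0 CPM lay between these groups. RB1CC1, the scaffold of the complex also called FIP200, passed in none of the 6 comparisons with DMSO, and its direction differed, at -0.93 in LNCaP and 0.53 in CT1258 after 12 h.

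Among the vesicle nucleation genes, ATG14 was the 1 of 5 that passed in PC-3 and AMBRA1 the 1 of 4 in CT1258, at both time points. Both fell, where 14.6% and 10.5% of all genes fell in PC-3 and 22.1% and 17.2% in CT1258. A call of 1 gene per line is too few to set the group apart from these shares. ATG14, which targets the phosphatidylinositol 3-kinase complex to autophagosome formation sites, was at 97.1 and 125 CPM in PC-3 controls, 61.8, 57.7 and 59.8 CPM after 12 h and 56.2, 57.2 and 57.9 CPM after 24 h. The treated samples were all below the controls and close to each other. ATG14 fell by 0.89 on the log2 scale after 12 h (SE 0.11, adjusted p = 1.6e-05) and by 0.96 after 24 h (SE 0.11, adjusted p = 1.52e-05). AMBRA1, a scaffold that binds Beclin 1, fell in CT1258 from 64.9, 65.6 and 67.7 CPM to 32.9, 37.8 and 39.5 CPM after 12 h, where no treated sample reached a control. Its change was -0.85 after 12 h (SE 0.10, adjusted p = 3.43e-06) and -0.50 after 24 h (adjusted p = 0.000398), and the 24 h call was lost in 5 of 9 fits that left out 1 sample. In PC-3, AMBRA1 had log2 fold changes of 0.27 and 0.34 that missed the threshold. BECN1, which encodes Beclin 1, was at 60.9 and 50.2 CPM in PC-3 controls, 43.8, 47.4 and 44.2 CPM after 12 h and 47.3, 52.0 and 54.9 CPM after 24 h. Its log2 fold changes of -0.30 and -0.11 in PC-3 and 0.07 and -0.23 in LNCaP did not pass, and it was listed at 0 in all 9 CT1258 samples. The lipid kinase PIK3C3 itself and UVRAG passed in no comparison, with log2 fold changes from -0.45 to 0.36 over both genes.

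Of the genes for membrane supply and phosphoinositide binding, 4 of 5 fell in CT1258 at both time points, where 22.1% and 17.2% of all genes fell, and 0 of 5 passed in PC-3. ATG2A, which transfers lipids into the growing membrane, was at 92.3, 85.0 and 95.8 CPM in CT1258 controls, 36.6, 40.0 and 37.5 CPM after 12 h and 42.4, 45.9 and 41.1 CPM after 24 h. Every treated sample lay far below the lowest control. The log2 fold change was -1.26 at 12 h (SE 0.09, adjusted p = 6.76e-08) and -1.08 at 24 h (SE 0.09, adjusted p = 4.29e-07). WIPI1, a reader of phosphatidylinositol 3-phosphate, fell to a similar degree, from 77.9, 67.1 and 80.1 CPM to 29.3, 31.6 and 35.8 CPM after 12 h and 31.4, 34.5 and 33.6 CPM after 24 h. Its treated levels were 0.430 and 0.442 of the control mean (log2 fold changes -1.22 and -1.18, adjusted p = 3.23e-07 and 8.18e-07). ATG9A, the membrane protein of the seed vesicles, fell from 77.7, 62.2 and 69.4 CPM to 41.9, 42.1 and 42.9 CPM after 12 h and 38.9, 34.1 and 33.6 CPM after 24 h. Its log2 fold changes were -0.72 and -0.97 (adjusted p = 2.77e-05 and 3.73e-06), and the comparison of both time points did not pass (adjusted p = 0.126). WIPI2, which recruits ATG16L1, changed by -0.51 and -0.46 (adjusted p = 0.00012 and 0.00037), and VMP1, an endoplasmic reticulum protein, had positive values of 0.39 and 0.28 that missed the threshold. In PC-3, ATG2A spread from 36.4 to 55.5 CPM between the 2 controls, and its treated samples (47.3 to 61.7 CPM) overlapped them.

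Conjugation genes were the largest group of members and gave 3 calls. In PC-3, 0 of 8 passed after 12 h and 1 of 8 after 24 h, next to 27.6% and 19.3% of all genes. In CT1258, 1 of 7 rose and 1 fell after 12 h, where 44.3% of all genes passed, and 0 passed after 24 h, where 33.8% did. These calls are too few to set the group apart from all genes. ATG4B, the protease that primes ATG8 proteins, fell in CT1258 after 12 h from 75.9, 104 and 76.4 CPM to 45.4, 51.1 and 53.6 CPM (-0.77, SE 0.12, adjusted p = 6.61e-05), with replicate 2 the highest control. ATG5, part of the conjugate that acts on ATG8 proteins, rose there after 12 h from 80.6, 91.7 and 76.9 CPM to 116, 125 and 116 CPM (0.51, adjusted p = 0.000142) and was the only member that rose in CT1258. It stood at 102, 114 and 112 CPM after 24 h, still above all controls, but the adjusted p-value was 0.00145. ATG16L1, the partner of ATG5 at the membrane, rose in PC-3 after 24 h from 49.1 and 42.3 CPM to 65.9, 65.4 and 72.9 CPM (0.57, adjusted p = 0.000618), while its values in CT1258 were -0.37 and -0.38 (adjusted p = 0.00126 and 0.00128). The ATG16L1 call in PC-3 was lost with limma voom, with the 2 groups alone and with a replicate block. Several fits that left out 1 PC-3 sample lost it as well. The other conjugation genes (ATG3, ATG4A, ATG7, ATG10 and ATG12) passed in no comparison.

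The ATG8 family included the member that fell in both PC-3 and CT1258. GABARAP, which acts late in autophagosome closure and in trafficking, was at 161 and 211 CPM in PC-3 controls, 82.6, 87.4 and 84.9 CPM after 12 h and 96.4, 96.2 and 103 CPM after 24 h. In CT1258 it was at 115, 146 and 110 CPM in controls, 63.5, 68.7 and 69.7 CPM after 12 h and 65.1, 68.6 and 64.3 CPM after 24 h. Treated and control samples did not overlap in either line. The log2 fold changes were -1.13 (SE 0.11, adjusted p = 2.4e-06) and -0.92 (SE 0.11, adjusted p = 2.35e-05) in PC-3 and -0.88 (SE 0.11, adjusted p = 5.44e-06) and -0.91 (SE 0.11, adjusted p = 7.11e-06) in CT1258. In LNCaP, GABARAP was at 245, 219 and 235 CPM in controls and at 164, 258 and 181 CPM after 12 h, with replicate 2 above the controls and the others below. GABARAPL2, its close relative also called GATE-16, fell in PC-3 from 98.5 and 102 CPM to 60.1, 55.9 and 57.1 CPM after 12 h (-0.80, adjusted p = 2.29e-05) and stood at 73.9, 72.8 and 62.0 CPM after 24 h (-0.53, adjusted p = 0.000861). The 24 h call was lost in each of the 8 fits that left out 1 PC-3 sample, and in CT1258 the values were -0.01 and -0.06. MAP1LC3B, which encodes the autophagosome marker LC3B, was at 208 and 278 CPM in PC-3 controls and at 190 to 217 CPM in treated samples, which missed the threshold (-0.29 and -0.20, adjusted p = 0.046 and 0.167). In LNCaP it was at 58.2, 91.2 and 82.0 CPM in controls and 40.9, 19.9 and 36.9 CPM after 12 h, all treated samples being below all controls. Its change of -1.24 (SE 0.27, adjusted p = 0.0241) passed at 0.05 but not at 0.001, and 38.2 to 39.7 CPM after 24 h gave -0.99 (adjusted p = 0.0811).

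The cargo receptors held the largest change of any member. SQSTM1 was at 967, 1077 and 976 CPM in CT1258 controls, 299, 298 and 333 CPM after 12 h and 441, 461 and 424 CPM after 24 h. The 3 groups did not overlap, with the 12 h samples lowest. SQSTM1 decreased to 0.308 of the control mean after 12 h (log2 fold change -1.70, SE 0.09, adjusted p = 3.12e-09) and 0.439 after 24 h (-1.19, SE 0.08, adjusted p = 8.25e-08). In PC-3 the controls were at 875 and 963 CPM and the 12 h samples at 910, 969 and 929 CPM, overlapping the controls (0.03, adjusted p = 0.859). After 24 h, PC-3 values of 551, 629 and 706 CPM lay below both controls, and the change of -0.55 just missed the threshold (SE 0.11, adjusted p = 0.00112). LNCaP held less SQSTM1 mRNA, with 234, 248 and 287 CPM in controls, 208, 489 and 228 CPM after 12 h and 197, 188 and 186 CPM after 24 h. The 489 CPM of replicate 2 was the only LNCaP value above the controls. NBR1, a receptor of similar build, fell in PC-3 after 12 h from 167 and 144 CPM to 113, 115 and 110 CPM (-0.47, adjusted p = 0.000958). It had -0.68 in LNCaP after 12 h (adjusted p = 0.0352). OPTN, a receptor for mitochondria and bacteria, fell in CT1258 from 81.2, 81.0 and 80.9 CPM to 63.5, 59.6 and 58.8 CPM after 12 h (-0.42, adjusted p = 0.000725) and changed by -0.47 after 24 h (adjusted p = 0.000379).

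At the lysosome, cathepsin B and LAMP1 moved, each in a different cell line. CTSB, a cysteine protease, was at 141 and 121 CPM in PC-3 controls, 303, 329 and 321 CPM after 12 h and 181, 195 and 219 CPM after 24 h. The 3 groups did not overlap, and the 12 h samples were highest. CTSB rose 2.43-fold after 12 h (log2 fold change 1.28, SE 0.11, adjusted p = 9.82e-07) and 1.52-fold after 24 h (0.60, SE 0.11, adjusted p = 0.000627), and the 24 h call was lost in 6 of 8 fits that left out 1 sample. CT1258 held between 1245 and 1866 CPM of CTSB in its samples, with log2 fold changes of -0.34 and -0.13 that missed the threshold, and LNCaP had -0.26 and -0.24. LAMP1 was at 326, 341 and 317 CPM in CT1258 controls, 171, 189 and 173 CPM after 12 h and 227, 208 and 205 CPM after 24 h, which kept the groups apart. It fell by 0.88 on the log2 scale (SE 0.08, adjusted p = 4.21e-07) and by 0.62 (SE 0.08, adjusted p = 1.62e-05). In PC-3, LAMP1 was at 179 and 146 CPM in controls and 196, 202 and 200 CPM after 12 h (0.30, adjusted p = 0.0351). LAMP2, its partner in the lysosomal membrane, passed nowhere, with log2 fold changes from -0.34 to 0.08. Its PC-3 levels were 138 and 121 CPM in controls, 142, 128 and 140 CPM after 12 h and 121, 122 and 105 CPM after 24 h, with overlapping groups. The aspartic protease gene CTSD was at 351 and 307 CPM in PC-3 controls, 268, 303 and 302 CPM after 12 h and 240, 259 and 324 CPM after 24 h, and its log2 fold changes in the human lines ran from -0.44 to -0.12. TFEB was low in PC-3, at 0.607 and 1.34 CPM in controls, and higher in CT1258, at 19.4, 26.3 and 21.2 CPM. After 12 h the CT1258 samples were at 10.3, 12.7 and 17.0 CPM and after 24 h at 13.7, 13.9 and 8.68 CPM, all below the controls, with changes of -0.75 and -0.88 that missed the threshold (adjusted p = 0.0034 and 0.00145). In PC-3 and LNCaP, TFEB had positive values of 0.98 and 1.15 after 12 h (adjusted p = 0.0285 and 0.0678).

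**Figure D3:**
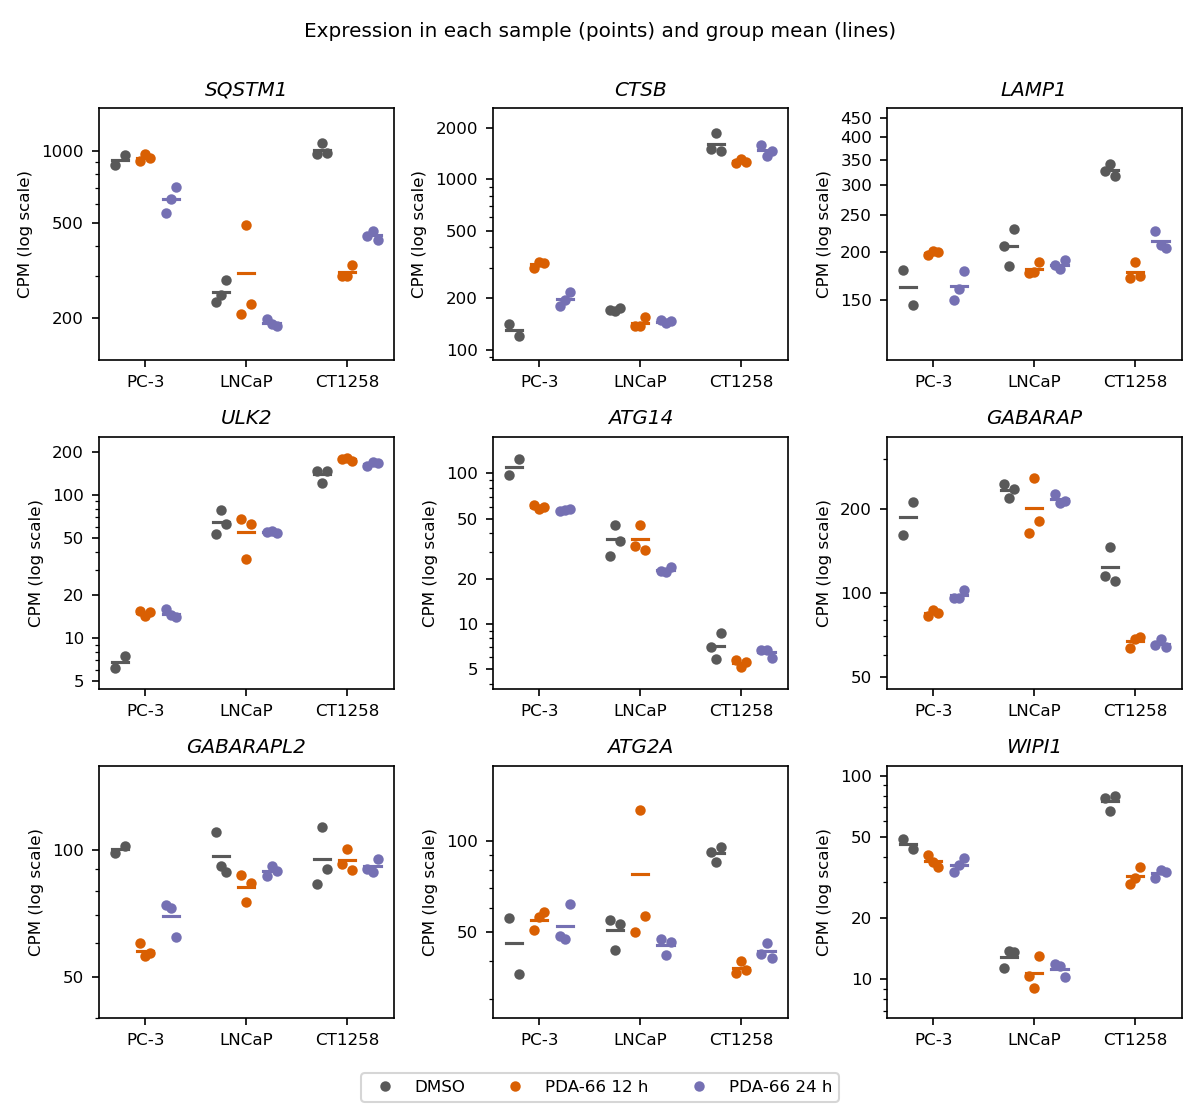
Expression of 9 genes in every sample, in CPM on a log axis, with points for samples and lines for group means. Grey is DMSO, orange PDA-66 for 12 h and purple PDA-66 for 24 h. CT1258 controls of SQSTM1 sit at 967 to 1077 CPM above all treated CT1258 samples, CTSB of PC-3 is highest at 12 h (303 to 329 CPM), and 1 LNCaP 12 h sample lies apart for SQSTM1 (489 CPM) and ATG2A (127 CPM).

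Exons of several of these human genes overlap other annotated genes, and whether strand was kept is not given in the sources used here, so that reads there cannot be assigned with certainty. SQSTM1 (chr5:179233398-179265078 on GRCh37) shared 22.4% of its exon bases with MGAT4B and MRNIP on the opposite strand. For ATG14 (chr14:55833109-55878548) this was 20.8%, shared with FBXO34, and for WIPI1 (chr17:66417089-66453654) it was 28.1%, shared with ARSG and a further gene. GABARAP (chr17:7143327-7145768) had 35.4% in common with an annotated gene on its own strand and ATG9A (chr2:220084102-220094439) 38.8%. CTSD (chr11:1773982-1785803) shared 27.3% on its own strand and 24.0% on the opposite strand. For ULK2, GABARAPL2, ATG2A, LAMP1, AMBRA1 and ATG4B, 0% of exon bases overlapped another gene.

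In LNCaP, the sample that stood apart changed several values. Without PDA-66 12 h replicate 2, 0 members passed at 0.001, where 1.96% of all genes did after 12 h and 0.787% after 24 h, but 13 of 34 passed at an adjusted p under 0.05 after 12 h (9 lower, 4 higher). At 24 h, 15 passed (10 lower, 5 higher). Over all genes tested, 29.1% and 27.9% passed at that threshold without this sample, compared with 9.14% and 2.92% with it. With the sample, 2 members passed at 0.05 after 12 h (MAP1LC3B and NBR1) and 0 after 24 h. MAP1LC3B was at -0.98 after 12 h without the sample (adjusted p = 0.00264) and -0.98 after 24 h (adjusted p = 0.00198). OPTN had -0.65 (adjusted p = 0.00651) and -0.78 (adjusted p = 0.00222), and RB1CC1 -0.66 at both times (adjusted p = 0.00501 and 0.0036). TFEB was among the higher genes, at 0.60 and 0.63 (adjusted p = 0.0394 and 0.025). The sign of ULK1 after 12 h went from 0.21 with the sample to -0.43 without it (adjusted p = 0.017), and SQSTM1 at 24 h had -0.43 in both fits with an adjusted p of 0.47 with the sample and 0.011 without.

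**Figure D4:**
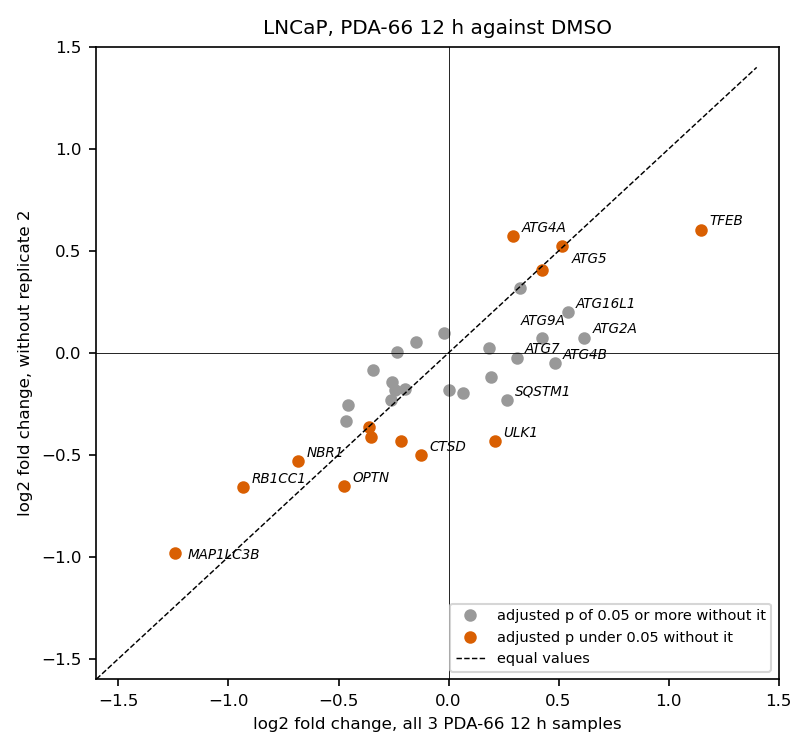
log2 fold change of the 34 genes in LNCaP after 12 h against DMSO, with all 3 PDA-66 samples (horizontal axis) and without replicate 2 (vertical axis). The dashed line marks equal values and orange points passed at an adjusted p under 0.05 without the sample. ATG2A, ATG4B, TFEB and ULK1 lie far below the line, and MAP1LC3B is the lowest point in both fits.

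Whether the cell lines responded differently was tested as an interaction for the 30 members shared by the 3 tables, in a joint fit of 11736 genes. BECN1, without counts in CT1258, is among the 30 and could not pass in a pair with CT1258. In CT1258 alone 9886 genes were tested, so the shares of all genes in its pairs include genes too low to test there. After 12 h the response of 1 member differed between PC-3 and LNCaP, of 3 between PC-3 and CT1258 and of 5 between LNCaP and CT1258, against 3.57%, 9.33% and 12.8% of all genes. After 24 h the count was 0 in each pair, with 1.23%, 4.79% and 3.44% of all genes. At an adjusted p under 0.05, 6, 16 and 16 members differed after 12 h in these pairs, next to 19.6%, 30.1% and 40.2% of all genes. The 24 h counts at this threshold were 3, 12 and 7 members, where 9.7%, 21.2% and 21.1% of all genes passed, and by the unadjusted p-value under 0.05 they were 11, 16 and 13. The edgeR likelihood ratio test called 2 members at 0.001 in each 24 h pair. Shares of all genes were not computed for the unadjusted and likelihood ratio counts, so these are not read as differences particular to the members.

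CTSB was higher in its 12 h response in PC-3 than in LNCaP, by 1.58 on the log2 scale (adjusted p = 9.67e-07), and than in CT1258, by 1.61 (adjusted p = 1.98e-07). For SQSTM1, the response of PC-3 lay 1.71 above that of CT1258 (adjusted p = 9.04e-05) and that of LNCaP 1.90 above it (adjusted p = 1.46e-05). LAMP1 differed between PC-3 and CT1258 by 1.17 (adjusted p = 7.77e-06), with values of 0.30 and -0.88 in the separate fits. Between LNCaP and CT1258, ATG2A differed by 1.81 (adjusted p = 0.000111), WIPI1 by 0.91 (adjusted p = 0.00092), TFEB by 1.83 (adjusted p = 0.000927) and RB1CC1 by -1.51 (adjusted p = 0.000249), the last having its lower value in LNCaP. Without LNCaP PDA-66 12 h replicate 2 the differences were 1.43 for SQSTM1, 1.29 for ATG2A, 1.04 for WIPI1, 1.31 for TFEB and -1.23 for RB1CC1, each with an adjusted p under 0.001. At 24 h, leaving out that sample brought 7 members past the threshold between LNCaP and CT1258, where 15.9% of all genes then passed, and 3 between PC-3 and LNCaP, where 5.63% did. ULK2 was among the latter, its response being 1.36 higher in PC-3 (adjusted p = 9.92e-06).

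**Figure D5:**
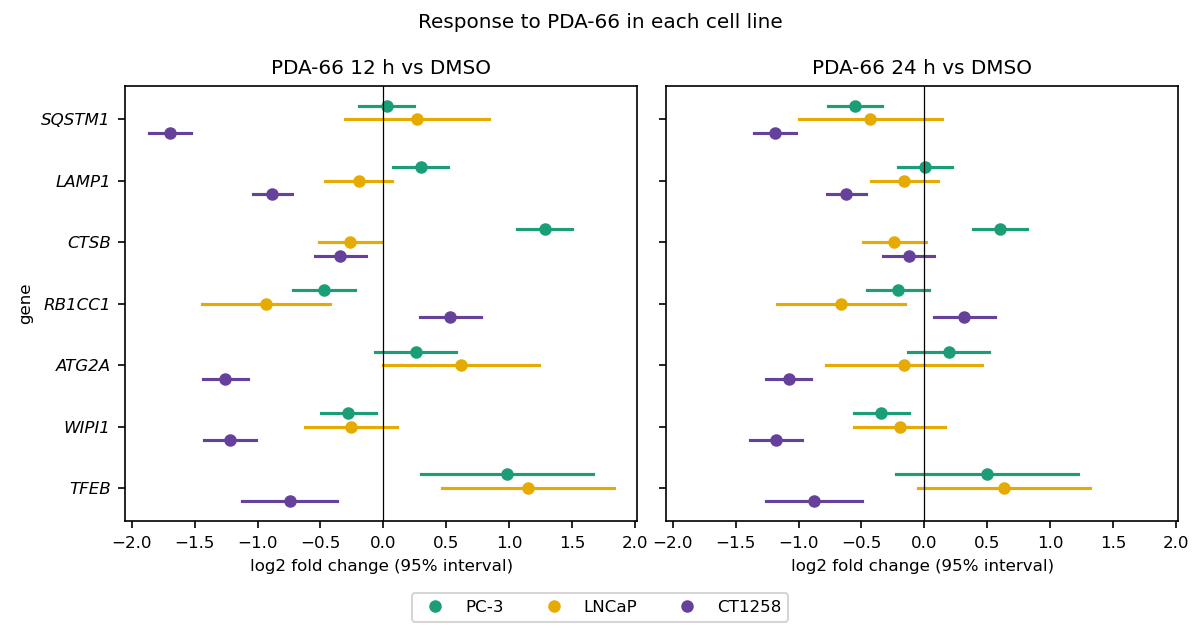
Response to PDA-66 (log2 fold change against DMSO, with 95% intervals) of the 7 genes whose 12 h response differed between cell lines, after 12 h (left) and 24 h (right). Green is PC-3, yellow LNCaP and purple CT1258. The purple points of SQSTM1, LAMP1, ATG2A and WIPI1 lie below 0 at both times, and only PC-3 is above 0 for CTSB.

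Between 12 h and 24 h few members differed. In PC-3, CTSB alone passed at 0.001 and was lower after 24 h than after 12 h (-0.68, SE 0.10, adjusted p = 0.000709), where 1.41% of all genes passed. In 6 of the 8 fits that left out 1 PC-3 sample, 0 members passed. SQSTM1 (-0.57, adjusted p = 0.00263) and OPTN (-0.31, adjusted p = 0.0468) passed at 0.05 as well, where 10.1% of all genes did. In CT1258 0 members passed at 0.001, where 2.13% of all genes did, and 4 passed at 0.05 against 19.3%, all higher after 24 h. Among these were SQSTM1 (0.51, adjusted p = 0.00117), AMBRA1 (0.34, adjusted p = 0.0282) and LAMP1 (0.26, adjusted p = 0.0347), whose 24 h samples lay between the 12 h samples and the controls. In LNCaP, 0 members passed at 0.001 or 0.05, like 0% of all genes, and 4 had an unadjusted p-value under 0.05 next to 6.36% of all genes.

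Other genes of the pathway were counted in lists, to be read against the shares of all genes at 0.001, which were 13% higher and 14.6% lower in PC-3 after 12 h and 8.88% and 10.5% after 24 h. In CT1258 these shares were 22.2% higher and 22.1% lower after 12 h, and 16.6% and 17.2% at 24 h. Of the 55 other genes for lysosomal hydrolases and membrane proteins that were considered, 53 were tested in PC-3, 5 of them rising and 16 falling by 12 h, and 3 rising and 17 falling by 24 h. In CT1258, 4 of 38 rose and 17 fell after 12 h, and 2 rose and 12 fell after 24 h. The medians were -0.25 and -0.32 in PC-3 and -0.35 and -0.24 in CT1258. IDUA and NAGLU, which degrade glycosaminoglycans, and the cysteine protease gene CTSF fell in both lines at both times. IDUA changed by -1.91 and -1.24 in PC-3 and by -1.26 and -1.13 in CT1258, and NAGLU by -1.15 and -1.30 in PC-3 and by -1.30 and -1.02 in CT1258. Of the vacuolar proton pump subunits, 0 of 18 passed in PC-3 after 12 h, and 1 rose and 1 fell after 24 h. In CT1258, 6 of 16 fell and 3 rose after 12 h, and 3 fell and 2 rose after 24 h. Of 28 core autophagy genes beyond the members tested in PC-3, 4 rose and 5 fell after 12 h, and of 22 in CT1258, 3 rose and 4 fell. After 24 h, 3 rose and 4 fell in PC-3, while 4 rose and 0 fell in CT1258, unlike the members there. ATG4C, a further ATG8 protease, rose in both lines at both times, by 1.00 and 1.11 in PC-3 and by 0.87 and 0.73 in CT1258. Among the regulators of TFEB and mTORC1, 1 rose and 6 fell of 30 after 12 h in PC-3, and 3 rose and 5 fell of 21 in CT1258. The 24 h counts of these regulators were 0 higher and 6 lower in PC-3, and 1 higher and 5 lower in CT1258. DDIT4, a stress-induced inhibitor of mTORC1, fell in both lines at both times, with log2 fold changes of -0.97 and -1.10 in PC-3 and -2.90 and -2.74 in CT1258. In LNCaP 0 genes of these lists passed at 0.001.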

How the data were processed

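Poly(A)-selected RNA of 26 samples was analysed. The authors deposited raw read counts per gene, without normalization. Per the labels and the submitters' processing notes, alignment used STAR 2.3.1s and hg19 for the human lines, BWA and CanFam3.1 for the canine line, and edgeR 3.14.0 was named. Strand setting and the treatment of reads with several matches are not given in the sources used here. In 1 PC-3 column each count ended in semicolons, which were stripped. For 2 PC-3 12 h samples the labels leave the replicate number unclear.

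Genes passing filterByExpr were scaled by TMM and tested per cell line over its 3 groups with the quasi-likelihood F test of edgeR 4.0.16 (R 4.3.3), with Benjamini-Hochberg adjustment over all genes and the study's threshold of 0.001. LNCaP had the largest common biological coefficient of variation (0.240, against 0.0971 for PC-3 and 0.100 for CT1258). SE is the standard error of a log2 fold change, and 95% intervals are 1.96 SE. Responses of cell lines were compared in a joint fit. The scripts were tested on simulated data.

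The members and all lists were chosen with earlier results of these data known. Members named in full were the 12 with the largest change among those called, and SQSTM1, MAP1LC3B, ULK1, BECN1, TFEB, LAMP1, LAMP2, CTSD and CTSB. From other lists, at most 3 genes called in the same direction in PC-3 and CT1258 were named. Other members described in a sentence were chosen after their values were seen. Alternatives used DESeq2 1.42.0, limma 3.58.1, other scalings, filters and thresholds, the 2 groups or lines compared alone, a replicate block, thinned CT1258 controls and fits without 1 sample each. Leaving out a PC-3 control leaves 1, which is then assumed to vary like the other groups.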

Additional observations from a re-analysis of the deposited data

Results flagged for a closer look

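Responses that differed by an interaction test at an adjusted p under 0.001 are listed here as values. After 12 h, the log2 fold change of CTSB was higher in PC-3 than in LNCaP by 1.58 and than in CT1258 by 1.61. Compared with CT1258, PC-3 was higher by 1.71 for SQSTM1 and by 1.17 for LAMP1. LNCaP exceeded CT1258 by 1.90 for SQSTM1, 1.81 for ATG2A, 1.83 for TFEB and 0.91 for WIPI1, and the difference for RB1CC1 was -1.51. The time points differed for CTSB in PC-3, with -0.68 at 24 h against 12 h.

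Over 22 or 23 alternative fits each, the differences between cell lines of CTSB, LAMP1 and ATG2A passed in all, as did that of SQSTM1 between LNCaP and CT1258. SQSTM1 between PC-3 and CT1258 failed in 1, without PC-3 DMSO replicate 2 (adjusted p = 0.00145). RB1CC1 passed in 18 of 23, WIPI1 in 12 and TFEB in 11, and the highest adjusted p-values were 0.00153, 0.00461 and 0.0043. The CTSB difference between time points was not part of these fits, and its call was lost in each fit that left out 1 PDA-66 sample of PC-3. Groups of 2 or 3 samples were too small for the outlier test.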

How the results depend on the processing

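The spread between replicates was widest in LNCaP (biological coefficient of variation 0.240), so that 0 members called there does not show that its genes did not respond, and PC-3 had 2 controls. Of 1914 alternative values for single genes, 1839 kept the call or its absence, 30 lost the call and 45 gained it. Direction was compared only where either fit called the gene, and 0 of those values reversed. Uncalled values could change sign, as ULK1 did in LNCaP after 12 h. The following counts of members called moved by more than 1.5 times, and the cause was not tested. The share of all genes is not set beside the counts in this section. They show only how a count depends on the processing and the samples used. For PC-3 at 12 h (6 members) the threshold of 0.05 gave 17. For PC-3 at 24 h (6), limma voom, the 2 groups alone and the replicate block gave 3 each, and the threshold of 0.05 gave 12. For PC-3 at 24 h against 12 h (1), no filter, the likelihood ratio test, DESeq2 and the 2 groups alone gave 2 each, voom 8 and the threshold of 0.05 gave 3. For LNCaP at 12 h (0), the likelihood ratio test and DESeq2 gave 1 each, voom 3 and the threshold of 0.05 gave 2, and at 24 h (0) voom gave 6. For CT1258, voom gave 21 and the threshold of 0.05 gave 22 at 12 h (12), and 16 and 19 at 24 h (9). For CT1258 at 24 h against 12 h (0), no filter, the likelihood ratio test and DESeq2 gave 1 each, the 2 groups alone 2, voom 3 and the threshold of 0.05 gave 4.

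Members whose response differed moved likewise. Between PC-3 and LNCaP, DESeq2 size factors gave 2, the likelihood ratio test 3 and the threshold of 0.05 gave 6 at 12 h (1), and the latter pair gave 2 and 3 at 24 h (0). Between PC-3 and CT1258 at 12 h (3), library size scaling gave 5, the likelihood ratio test 7, the 2 lines alone 13 and the threshold of 0.05 gave 16. At 24 h (0) the last 3 gave 2, 8 and 12. Between LNCaP and CT1258 at 12 h (5), library size scaling gave 3, the likelihood ratio test 9, the 2 lines alone 2 and the threshold of 0.05 gave 16, and at 24 h (0) the likelihood ratio test gave 2 and the threshold of 0.05 gave 7.

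Fits that left out 1 sample gave 5 to 10 members for PC-3 at 12 h (10 without DMSO replicate 2), 3 to 7 at 24 h (3 without DMSO replicate 3, either unnumbered 12 h sample, 12 h replicate 3 or 24 h replicate 2) and 0 to 2 between the times. They gave 0 in all LNCaP comparisons, 9 to 17 in CT1258 at 12 h, 6 to 14 at 24 h and 0 to 2 between the times (14 and 2 without DMSO replicate 2). Differences ranged from 1 to 3 and 0 to 3 for PC-3 against LNCaP at 12 h and 24 h, from 2 to 4 and 0 to 0 for PC-3 against CT1258, and from 2 to 12 and 0 to 7 for LNCaP against CT1258 (12 without LNCaP 12 h replicate 1, 7 without replicate 2). Correlations of deviations between samples sharing a number ran from -0.42 to 0.19 in LNCaP, -0.19 to 0.15 in CT1258 and -0.11 to 0.08 in PC-3. These values did not show that the numbers pair the samples, but groups of 2 or 3 are too small to exclude it. The replicate block moved only the PC-3 count at 24 h given above by more than 1.5 times. Thinning the CT1258 controls moved no count that far.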
